A study of Mus musculus with 8 samples.

Results

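The lysyl oxidases are secreted, copper-dependent amine oxidases that cross-link collagen and elastin. The mouse genome has 5 of these genes, Lox, Loxl1, Loxl2, Loxl3 and Loxl4. They were taken by gene symbol from a table of 50462 genes measured by RNA-seq in cartilage of the medial side of the knee, and all 5 had enough counts to be among the 18707 genes tested. The libraries came from male C57Bl/6J mice with the genotype given as wild-type control, each from 1 mouse. Naive libraries (n = 4) were from untreated mice sampled at day 0, aged 11 weeks, and DMM libraries (n = 4) were from mice aged 17 weeks, sampled 42 days after destabilisation of the medial meniscus in the left knee. DMM is a surgical model of post-traumatic osteoarthritis, in which cutting the ligament that anchors the medial meniscus loads the joint abnormally. Sham-operated mice were not analysed here. Destabilisation therefore cannot be told apart from the operation itself, with its anaesthetic and analgesic, or from the additional age of the DMM mice.

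Lysyl oxidases convert the amine of lysine and hydroxylysine side chains in collagen and tropoelastin to an aldehyde, and these aldehydes then react with neighbouring chains to form the covalent cross-links that give cartilage, bone and tendon their tensile strength. Catalysis needs a copper ion and a cofactor made from a lysine and a tyrosine of the enzyme itself. Lox and Loxl1 have a propeptide that is removed outside the cell by Bmp1 and related proteases, whereas Loxl2, Loxl3 and Loxl4 carry scavenger receptor repeats before the catalytic domain.

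On the mouse genome GRCm38, the 5 genes lie on 5 chromosomes and all are protein coding. Lox (ENSMUSG00000024529) and Loxl1 (ENSMUSG00000032334) each have 7 exons in their longest coding transcript. Loxl1 lies on chr9:58287738-58313186, minus strand. The scavenger receptor members are split into more exons. Loxl2 (ENSMUSG00000034205) has 14 exons on chr14:69609068-69695834, plus strand. Loxl3 (ENSMUSG00000000693) has 14 exons on chr6:83034173-83052562, plus strand. Loxl4 (ENSMUSG00000025185) has 15 exons on chr19:42593982-42612813, minus strand.

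The copper site lies in the catalytic domain that all members share, and it is shown because catalysis by the members needs copper. In each gene it is a stretch of 24 coding bases with 4 histidine codons, given here 5′ to 3′ on the coding strand with the histidine codons in capitals for 4 of the members.
Loxl1: CATagctgtCACcaaCATtacCAC
Loxl2: CACgactgcCACaggCACtacCAC
Loxl3: CATgagtgtCATgggCATtacCAC
Loxl4: CACcagtgcCACaggCACtacCAC
The stretch was interrupted by an intron after base 14 in all 5 genes. It spanned exons 3 and 4 in Lox and Loxl1, exons 10 and 11 in Loxl2 and Loxl3, and exons 11 and 12 in Loxl4. Among the sequences shown, Loxl2 and Loxl4 were the closest pair and differed at 2 of the 24 bases. Loxl3 differed from each of them at 6 bases. Between Loxl1, the propeptide member, and a scavenger receptor member the number was 7 to 9. Loxl1 codes for the stretch at chr9:58294359-58294372 and chr9:58293720-58293729. The blocks of Loxl2 are chr14:69682325-69682338 and chr14:69689028-69689037. In Loxl3 they are chr6:83050004-83050017 and chr6:83050116-83050125, and in Loxl4 chr19:42599877-42599890 and chr19:42598807-42598816.

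All 5 lysyl oxidase genes were higher in DMM than in naive cartilage, by 1.58-fold to 2.27-fold, and for each of them every DMM library lay above every naive library. A gene was called at a DESeq2 adjusted p of 0.05 or less, over all genes tested, and a change of 1.5-fold or more. Over all genes tested, 1380 (7.38%) were called higher and 1054 (5.63%) lower, and 11.5% of genes had every DMM library above every naive library. The family stood at 5 of 5 called higher and 0 of 5 called lower. Its median log2 fold change was 0.80, beside -0.01 over all genes tested. In bulk tissue, a higher or lower share of cells of a type cannot be told apart from more or less RNA per cell. Values below are normalised estimated counts, that is, estimated counts divided by the size factor of their library.

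Lox, the founding member, lies on chr18:52516067-52529867, minus strand. It had 1495, 1510, 1573 and 1603 counts in naive libraries 1 to 4 and 2082, 2397, 2932 and 2326 in DMM libraries 1 to 4. The naive values lay close together, DMM 3 was the highest, and the groups did not overlap. The means were 1545 ± 51.4 and 2434 ± 358 (SD, n = 4 each). The log2 fold change was 0.66 (SE 0.12, DESeq2 adjusted p = 2.9e-06). Without DMM 3 the change was 0.55 on the log2 scale, below the 1.5-fold threshold, so that the call of Lox rested on that library.

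Loxl1, which is needed for elastic fibre upkeep, had 432.7, 526.8, 586.5 and 627.0 counts in naive libraries 1 to 4 and 1114, 1078, 929.4 and 671.5 in DMM libraries 1 to 4. DMM 4 stood just above the highest naive library, by 1.07-fold, and the other DMM libraries stood well above it. The means were 543.3 ± 84.4 and 948.2 ± 201 (SD, n = 4 each). On the log2 scale the change was 0.80 (SE 0.18, DESeq2 adjusted p = 0.000185). Leaving out each library in turn gave 0.71 to 0.94, and the call was kept each time.

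Loxl2, an enzyme that cross-links collagen IV in basement membranes and fibrillar collagens elsewhere, had the largest fold change of the family. It had 548.7, 846.1, 959.0 and 1017 counts in naive libraries 1 to 4, and 1904, 1323, 2658 and 1746 in DMM libraries 1 to 4. The lowest DMM library, DMM 2, was 1.30-fold above the highest naive library. The means were 842.7 ± 208 and 1908 ± 557 (SD, n = 4 each) and the log2 fold change was 1.18 (SE 0.23, DESeq2 adjusted p = 9.32e-06). Loxl2 also had the widest relative spread of the family, with a coefficient of variation of 24.7% among naive and 29.2% among DMM libraries.

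Loxl3, the member linked to cartilage and palate development, had 290.2, 372.5, 413.1 and 433.1 counts in naive libraries 1 to 4 and 605.4, 653.6, 740.1 and 805.1 in DMM libraries 1 to 4. It had the clearest gap between the groups in the family, at 1.40-fold from the highest naive to the lowest DMM library. The means were 377.2 ± 63.3 and 701.0 ± 89.0 (SD, n = 4 each). The log2 fold change was 0.90 (SE 0.16, DESeq2 adjusted p = 9.08e-07). Part of this gene overlaps Htra2 on the opposite strand, which is taken up with the shared sequence.

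Loxl4, a scavenger receptor member like Loxl2, had 223.4, 347.2, 313.6 and 339.0 counts in naive libraries 1 to 4 and 548.2, 393.4, 409.1 and 577.6 in DMM libraries 1 to 4. The DMM libraries fell into a higher pair, DMM 1 and DMM 4, and a lower pair, which stood 1.13-fold and more above the highest naive library. The means were 305.8 ± 56.8 and 482.1 ± 94.3 (SD, n = 4 each). The log2 fold change was 0.66 (SE 0.19, DESeq2 adjusted p = 0.00418). The call was lost without naive 1, at a log2 fold change of 0.54, and without DMM 4, at 0.56.

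**Figure D1:**
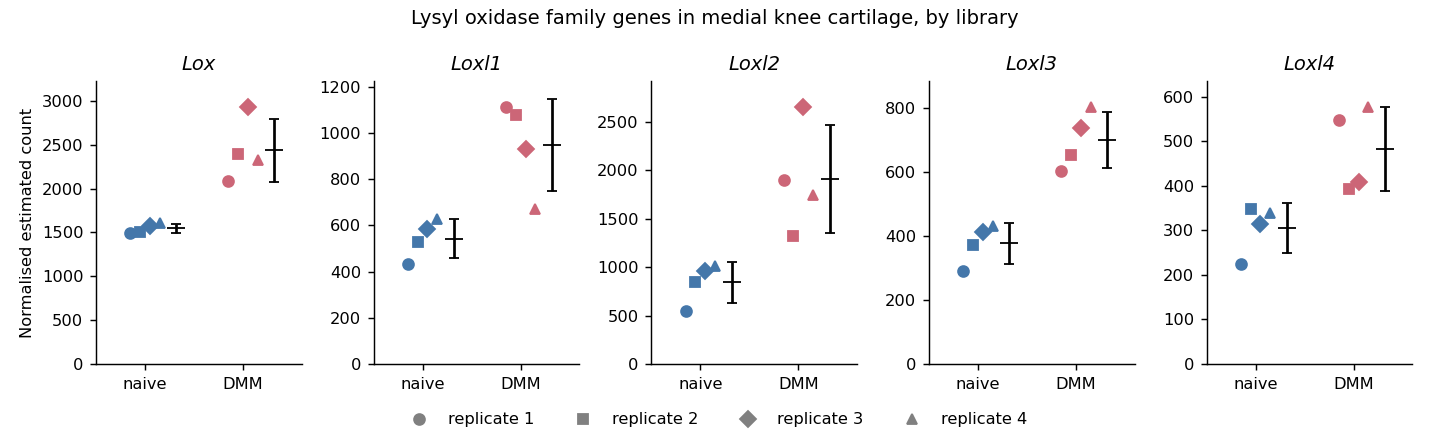
Normalised estimated counts (y axes, each from 0) of the 5 lysyl oxidase genes in 4 naive (blue) and 4 DMM (red) libraries, 1 symbol shape per replicate number, with the mean and SD beside each group. In every panel the DMM points lie above the naive points, with the narrowest gap for Loxl1, where DMM 4 (671.5) is close to naive 4 (627.0).

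Among naive mice, library 1 was the lowest for all 5 members. This was not particular to the family. Naive 1 was also lowest for the summed chondrocyte, osteoblast and osteocyte, fibroblast, smooth muscle and pericyte, and skeletal muscle markers given below. It was not lowest for the endothelial, neutrophil lineage, erythroid, or macrophage and osteoclast sums. No DMM library was the lowest or the highest for all 5 members. DMM 3 was the highest for Lox and Loxl2, DMM 1 for Loxl1, and DMM 4 for Loxl3 and Loxl4, and DMM 4 was at the same time the lowest for Loxl1. The propeptide members thus had opposite places in DMM 1, which was the lowest DMM library for Lox and the highest for Loxl1.

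Per kilobase of the longest coding transcript, Lox was the most abundant member in both groups, and it lay above the next member in 4 of 4 libraries of each. In naive cartilage the level of Lox was 326 ± 10.8 normalised counts per kilobase (SD, n = 4). Loxl1 followed at 165 ± 25.6 and Loxl2 at 159 ± 39.2, and these neighbours did not differ beyond their spread. Loxl3 had 92.1 ± 15.4 and Loxl4 81.8 ± 15.2, and both the step from Loxl2 to Loxl3 and that from Loxl3 to Loxl4 lay within ranges that touched each other. Within single naive libraries, Loxl2 lay above Loxl3 in 4 of 4 and Loxl3 above Loxl4 in 3 of 4. Only the step from Lox to Loxl1 was free of overlap. These levels are those of the dissected tissue, in which markers of several cell types had counts, and not of chondrocytes alone.

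In DMM cartilage the level of Lox was 513 ± 75.6 normalised counts per kilobase (SD, n = 4) and that of Loxl2 359 ± 105, ahead of Loxl1 at 288 ± 61.0. Loxl3 had 171 ± 21.7 and Loxl4 129 ± 25.2. Here only the step from Loxl1 to Loxl3 was free of overlap between neighbours. Within single DMM libraries, Loxl3 lay above Loxl4 in 4 of 4. Loxl2 lay above Loxl1 in 3 of 4 DMM libraries and in 2 of 4 naive libraries. The order of Loxl1 and Loxl2 in naive cartilage also turned when coding length was used in place of transcript length. As shares of the summed level of the family, Lox made up 40.0% ± 4.30 in naive and 35.1% ± 3.04 in DMM cartilage, and Loxl2 19.0% ± 2.64 and 24.3% ± 4.56 (SD, n = 4 each). The shares of Loxl1 (20.0% and 19.9%), Loxl3 (11.1% and 11.8%) and Loxl4 (9.90% and 8.95%) lay closer together. The summed level was 823 ± 103 in naive and 1460 ± 157 in DMM cartilage.

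**Figure D2:**
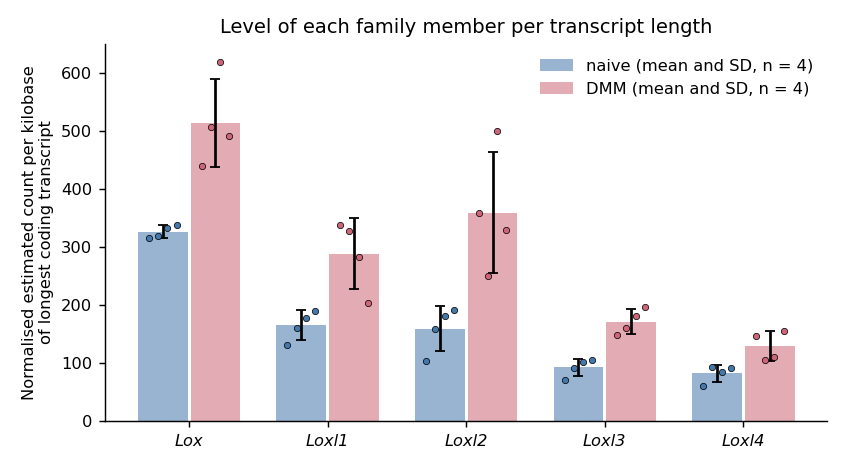
Normalised estimated count per kilobase of the longest coding transcript (y axis, from 0) of each lysyl oxidase gene, with bars and error bars for the mean and SD of 4 naive (blue) or 4 DMM (red) libraries and points for single libraries. Lox has the tallest bar in both groups, at 326 and 513, and Loxl2 passes Loxl1 in the DMM group, at 359 against 288.

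Whether the members changed by unequal amounts was tested on the log2 ratio of each pair within a library, which does not depend on library scaling. Of the 10 pairs, 0 passed, and 0 had an unadjusted p of 0.05 or less in the two-sided exact permutation test over the 8 libraries, whose smallest possible p is 0.0286. After adjustment over 10 pairs a single pair at that p would have an adjusted p of 0.286, and 6 pairs would have to reach it for any to pass, so the adjusted values bear little on whether members differed. The ratio of Loxl4 to Loxl2 had the smallest p, and moved from -1.44 ± 0.18 in naive to -1.96 ± 0.50 in DMM libraries (SD, n = 4 each, exact permutation p = 0.0571, adjusted p = 0.381 over 10 pairs). That of Loxl2 to Lox moved from -0.91 ± 0.36 to -0.39 ± 0.34 (exact permutation p = 0.114, adjusted p = 0.381). The groups overlapped for all 10 ratios, and a difference in size between the change of Loxl2 and that of the other members was not detectable with this number of mice. The ratio of Loxl3 to Loxl1 was held within -0.57 to -0.50 in the 4 naive libraries, with an SD of 0.03. In DMM libraries the same ratio ran from -0.88 in DMM 1 to 0.26 in DMM 4, with an SD of 0.51.

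Each member was then set beside all 11013 genes with a symbol and a mean normalised count of at least 100, by the mean absolute difference of their centred log2 profiles over the 8 libraries. These distances describe the profiles and carry no test, and any gene higher in DMM starts close to any other. Loxl2 was nearest to Pcolce, the enhancer of procollagen C-proteinase, at 0.088, against a median of 0.619 over all genes. Pcolce had 535.6, 770.3, 814.5 and 1010 counts in naive libraries 1 to 4 and 1991, 1374, 2481 and 1562 in DMM libraries 1 to 4. Both genes were lowest in naive 1 and highest in DMM 3, and their libraries stood in the same order within each group. For Pcolce the log2 fold change was 1.24 (SE 0.22, DESeq2 adjusted p = 7.82e-07). Frmd6 (0.109) and Rora (0.111), the latter a nuclear receptor, came next.

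**Figure D3:**
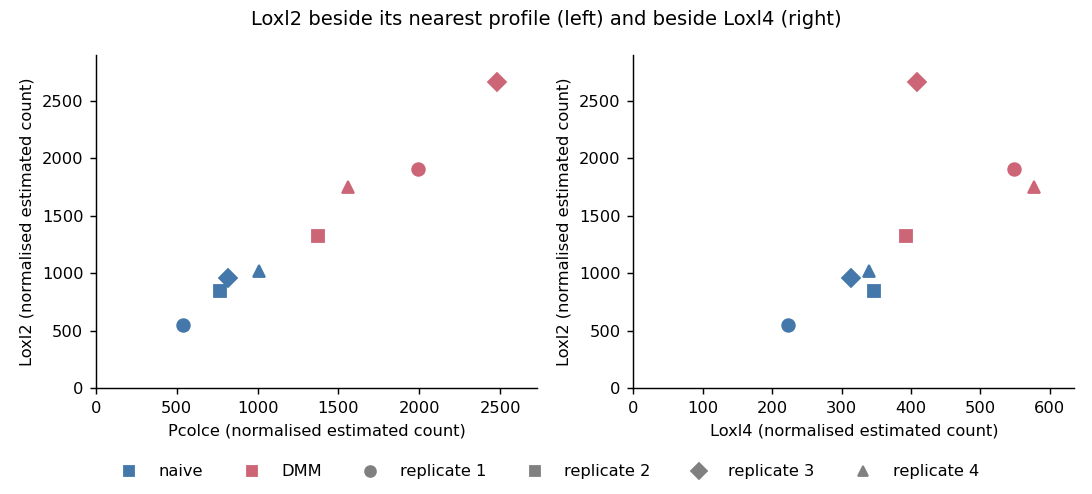
Normalised estimated count of Loxl2 (y axes) against that of Pcolce (left) and of Loxl4 (right) in 4 naive (blue) and 4 DMM (red) libraries, 1 symbol shape per replicate number. Beside Pcolce the 8 points run close to a line from naive 1 (535.6 and 548.7) to DMM 3 (2481 and 2658), whereas DMM 3 has the highest Loxl2 but only 409.1 counts of Loxl4.

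The nearest profiles to Lox were Marveld1 at 0.060, Lrp6 at 0.068, a co-receptor of the Wnt pathway, and Btg3 at 0.072. Their log2 fold changes were 0.71, 0.59 and 0.58, of which that of Btg3 missed the 1.5-fold threshold. For Loxl1 they were Irf2bpl (0.064), Iqsec2 (0.066) and Ralgds (0.075), with log2 fold changes of 0.73, 0.84 and 0.83, all called higher. For Loxl3 they were the non-coding gene Snhg18 (0.055), the sodium and calcium exchanger Slc8a3 (0.058) and the skeletal transcription factor gene Shox2 (0.067), with log2 fold changes of 0.84, 0.99 and 0.85, all called higher. For Loxl4 they were Podxl2 (0.093), Mdfi (0.097) and Gprc5c (0.107), of which Podxl2, at 0.54, missed the 1.5-fold threshold. The median distances over all genes were 0.362 for Lox, 0.445 for Loxl1, 0.481 for Loxl3 and 0.382 for Loxl4. Within the family Loxl3 was the closest member to Lox (0.152), to Loxl1 (0.219), to Loxl2 (0.238) and to Loxl4 (0.194). Many genes outside the family were closer. Among the 11013 genes Loxl3 stood at place 366 for Lox, 651 for Loxl1, 172 for Loxl2 and 131 for Loxl4.

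The main substrates of the family are fibrillar collagens and elastin. Of 11 fibrillar collagen genes, 11 were called higher, beside 7.38% over all genes tested, with a median log2 fold change of 1.22. Col1a1, the main chain of bone and tendon collagen, went from 108513, 198416, 134503 and 108811 counts in naive libraries 1 to 4 to 384195, 302873, 339966 and 267108 in DMM libraries 1 to 4. The groups did not overlap, and the log2 fold change was 1.23 (SE 0.20, DESeq2 adjusted p = 4.77e-08). Col2a1, the main collagen of cartilage, averaged 23979 ± 9798 counts in the naive group and 63821 ± 27070 in the DMM group (SD, n = 4 each). This amounted to 1.41 on the log2 scale (SE 0.42, DESeq2 adjusted p = 0.00738). Its error was wider than that of any lysyl oxidase. Col5a2 (1.34), Col5a1 (1.48) and Col27a1 (1.19) had the smallest adjusted p among these genes.

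Among 11 elastic fibre genes tested, of 12 listed, 9 were called higher and 0 lower, beside 7.38% and 5.63% over all genes tested. Their median log2 fold change was 0.88. Eln, which codes for tropoelastin, had 42.2, 45.2, 95.3 and 100.9 counts in naive libraries 1 to 4 and 224.7, 166.6, 172.1 and 119.1 in DMM libraries 1 to 4. The elastin gene was low in all libraries, and its groups did not overlap. Its log2 fold change was 1.27 (SE 0.31, DESeq2 adjusted p = 0.000618). As in Loxl1, DMM 4 was the lowest DMM library and DMM 1 the highest. Efemp2, which codes for the fibulin that brings Lox to tropoelastin, had 233.1 ± 23.6 and 392.4 ± 39.8 counts (SD, n = 4 each) and a log2 fold change of 0.75. The fibrillin gene Fbn2 had one of 0.89, and both were called higher.

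The proteases and scaffolds that act on the Lox proenzyme or on its binding to collagen gave 8 genes called higher and 0 lower of 10 tested. The shares over all genes tested were 7.38% and 5.63%, and the median log2 fold change of the list was 0.86. Bmp1, which cleaves the propeptide, averaged 1033 ± 97.4 counts in the naive group and 1751 ± 261 in the DMM group (SD, n = 4 each). This amounted to 0.76 on the log2 scale (SE 0.13, DESeq2 adjusted p = 7.36e-07). Fmod, the collagen-binding proteoglycan fibromodulin, had the largest fold change of the list. Its counts were 1191, 1757, 1998 and 2416 in naive libraries 1 to 4 and 6502, 7380, 9857 and 7359 in DMM libraries 1 to 4. The log2 fold change was 2.08 (SE 0.20, DESeq2 adjusted p = 5.58e-21). Postn, or periostin, a matrix protein that binds Bmp1, had one of 1.35, and the procollagen N-proteinase gene Adamts2 one of 0.87. Thbs1 was lower in every DMM library, at -0.56 on the log2 scale, and missed the 1.5-fold threshold.

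Copper is loaded onto the enzymes inside the cell, in the secretory pathway. Of 10 copper handling genes, DESeq2 called 0 higher and 1 lower, beside 7.38% and 5.63% over all genes tested. The list had a median log2 fold change of 0.06. At an unadjusted p of 0.05, 2 were higher and 2 lower, and edgeR and limma-voom each called 0 higher and 1 lower. Atp7a, the copper pump that loads secreted copper enzymes, had 412.4, 421.7, 438.8 and 420.7 counts in naive libraries 1 to 4 and 380.6, 424.6, 453.6 and 517.1 in DMM libraries 1 to 4. The groups overlapped, and the log2 fold change was 0.07 (SE 0.13, DESeq2 adjusted p = 0.776). Atp7b, the related pump known from the liver, had 210.2, 236.8, 122.0 and 147.4 counts in naive libraries 1 to 4 and 83.8, 106.4, 101.3 and 59.6 in DMM libraries 1 to 4. Every DMM library lay below every naive library, as for 9.86% of all genes, and the log2 fold change was -1.03 (SE 0.26, DESeq2 adjusted p = 0.000932).

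Enzymes and chaperones that prepare collagen before it is secreted gave 7 genes called higher and 0 lower of 14. The shares over all genes tested were 7.38% and 5.63%, and the median log2 fold change of the list was 0.72. Plod2, which hydroxylates the telopeptide lysines that lysyl oxidases later act on, averaged 1529 ± 227 counts in the naive group and 3236 ± 752 in the DMM group (SD, n = 4 each). Its log2 fold change was 1.08 (SE 0.18, DESeq2 adjusted p = 1.06e-07). Fkbp10 (0.91), a chaperone that acts with Plod2, and P3h4 (1.26) were called higher, while Plod1 (0.39) was not called. Plod3 (0.34, DESeq2 adjusted p = 0.0247) missed only the 1.5-fold threshold. Other cross-linking enzymes and copper amine oxidases had a median log2 fold change of 0.27. Of 7 tested, 1 gene was called higher, beside 7.38% over all genes tested. That gene was Pxdn, the peroxidasin that cross-links collagen IV, at 1.24. Transglutaminase 2, Tgm2, changed by 0.47 on the log2 scale (SE 0.14, DESeq2 adjusted p = 0.00622) and missed the 1.5-fold threshold.

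Of 12 genes for known inducers and partners of lysyl oxidases, 5 were called higher and 0 lower, beside 7.38% and 5.63% over all genes tested. Their median log2 fold change was 0.56. Tgfb1, an inducer of Lox in many cells, averaged 2252 ± 215 counts in the naive group and 2244 ± 248 in the DMM group (SD, n = 4 each). The change was -0.01 on the log2 scale (SE 0.12, DESeq2 adjusted p = 0.986). The direction of this small value turned with the scaling, to 0.02 with TMM factors and 0.15 with total counts. Tgfb2 (1.25) and Tgfb3 (1.09) were called higher. Snai1, a transcription factor that Loxl2 and Loxl3 are known to bind, had a log2 fold change of 1.14. The hypoxia factor gene Hif1a had one of 0.58 (DESeq2 adjusted p = 0.00114). Its groups did not overlap, and it missed only the 1.5-fold threshold.

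**Figure D4:**
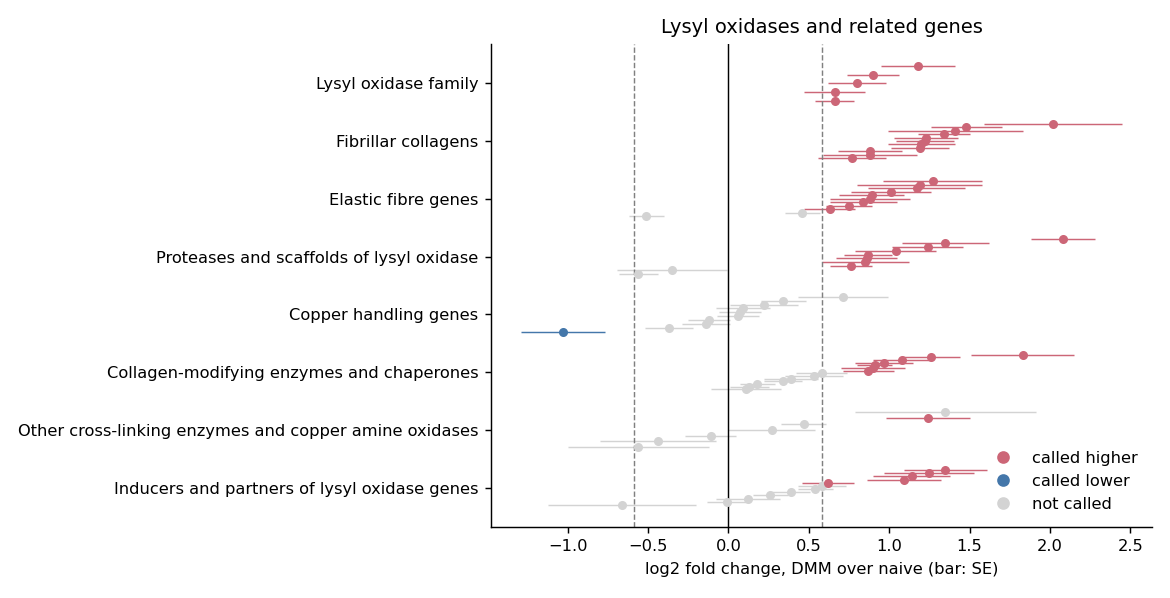
log2 fold change, DMM over naive, with its SE (x axis), of every tested gene of the lysyl oxidase family and of 7 lists of related genes, with red for genes called higher, blue for called lower and grey for not called. Dashed lines mark a 1.5-fold change. The points of the family and of the 11 fibrillar collagens all lie to the right of the upper line, though some of their error bars cross it, and the copper handling genes have a median of 0.06, with Mt2 (0.71, not called) beyond the upper line and Atp7b (-1.03) beyond the lower one.

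Markers of several cell types moved in the same comparison. Over all genes tested, 7.38% were called higher and 5.63% lower. In lists this short, a count of 0 or 1 called is close to those shares and says little about the cells. Of 8 chondrocyte markers 4 were called higher (Acan, Col2a1, Sox9 and Comp) and 4 were not called (Col9a1 at -0.36, Matn3 at -0.29, Hapln1 at 0.79 and Chad at 0.40 on the log2 scale), and the 8 together summed to 37301 to 61092 counts in naive and 81030 to 159287 in DMM libraries. The labels give the cell type as chondrocyte, and all 8 of these markers had counts in every library, but so did the markers of other cells. In each naive library the neutrophil lineage and erythroid sums given below were larger than the chondrocyte sum. In DMM libraries the neutrophil lineage sum was smaller than it, and the erythroid sum was larger only in DMM 3. Osteoblast and osteocyte markers were called higher for 8 of 8, with sums of 20137 to 26075 and 40020 to 72271. Fibroblast markers of synovium and tendon were called higher for 5 of 8 by DESeq2 and by edgeR but for 3 of 8 by limma-voom, and their sums, 1354 to 1912 and 1751 to 4039, overlapped. Smooth muscle and pericyte markers were called higher for 3 of 6, with sums of 970 to 2196 and 2365 to 4553. Neutrophil lineage markers were called lower for 7 of 7, with sums of 117073 to 175896 and 51085 to 105218. Erythroid markers were called lower for 5 of 6, with sums of 137462 to 272544 and 70518 to 152909, which overlapped. Of 6 endothelial markers 2 were called higher and 1 lower, and their sums overlapped, at 5575 to 6718 and 5754 to 6304. Of 6 macrophage and osteoclast markers DESeq2 called 0, with 2 higher and 1 lower at an unadjusted p of 0.05 and 0 called by edgeR or limma-voom, and sums of 9188 to 13995 and 12081 to 16461. Of 3 tested skeletal muscle markers 0 were called by any of these tools or at an unadjusted p of 0.05, and the sums of all 6 were 73 to 415 and 56 to 900. Beside 0.80 for the family, the median log2 fold change was 0.93 for chondrocyte and 1.04 for osteoblast and osteocyte markers. It was 1.18 for fibroblast, 1.29 for smooth muscle and pericyte, 0.84 for skeletal muscle and 0.42 for endothelial markers. For macrophage and osteoclast markers it was 0.15, for neutrophil lineage -0.88 and for erythroid -1.01. No marker was at 0 in any library, and the part of these shifts in the change of the lysyl oxidases was not tested.

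The order of the libraries within a group was the same for some members and some marker lists. In the naive group Lox, Loxl1, Loxl2 and Loxl3 shared the order of the smooth muscle and pericyte marker sum. Of these, only Loxl2 also shared the order of that sum in the DMM group. That sum was 970, 1200, 1736 and 2196 in naive libraries 1 to 4 and 3273, 2365, 4553 and 3006 in DMM libraries 1 to 4, highest in DMM 3 and lowest among DMM libraries in DMM 2, as Loxl2 was. The fibroblast marker sum had the same order as Loxl2 in the DMM group, at 3360, 1751, 4039 and 1932, and so did the erythroid sum, at 75357, 70518, 152909 and 74283, although erythroid markers were lower in DMM. Loxl3 had the order of the chondrocyte marker sum in the DMM group, 81030, 85007, 134506 and 159287 in DMM libraries 1 to 4, but not in the naive group, where that sum was 37301, 61092, 54932 and 47451. The neutrophil lineage sum, which was lower in DMM, had that same order in the DMM group, at 51085, 68782, 103239 and 105218. Loxl1 shared its DMM order with the skeletal muscle sum, at 900, 147, 76 and 56. Matches of order thus occurred with markers that rose, fell or were not called. With 4 libraries a group these orders are a description, and their part in the changes was not tested.

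A pair of members share sequence with other genes, which bears on their estimated counts, since the quantifier Kallisto shares out reads that match more than 1 transcript. Of the 31-base words in Loxl2 transcripts, 46.4% also occurred in another gene, chiefly the annotated gene Gm21451, which holds 2318 of the 5358 words on the same strand, and 244 words occurred on the opposite strand in Gm27177 and Gm16867. Gm21451 had 68.6, 21.3, 15.0 and 91.8 counts in naive libraries 1 to 4 and 19.1, 0.0, 14.0 and 7.2 in DMM libraries 1 to 4. Those counts were small beside those of Loxl2, and with both genes summed, a setting chosen after seeing the data, the log2 fold change was 1.11 (DESeq2 adjusted p = 2.21e-05). The count of Loxl2 alone remains uncertain. This sum covers Gm21451 only, and the part of the other shared words was not tested.

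In Loxl3, 9.8% of the words occurred in Htra2 on the opposite strand, 458 of 4656. Htra2, a mitochondrial protease gene, had 276.1, 311.3, 237.6 and 243.8 counts in naive libraries 1 to 4 and 156.7, 174.1, 172.1 and 155.2 in DMM libraries 1 to 4. It was called lower, at -0.70 on the log2 scale. Use of strand in the counting is not given in the sources used here, and without strand reads from the overlap cannot be assigned to either gene. With both genes summed, likewise a setting chosen after seeing the data, the log2 fold change was 0.43 (DESeq2 adjusted p = 0.00352), below the threshold. That sum holds all counts of Htra2, not only those from the overlap, and Htra2 was itself lower. The sum would therefore show a smaller change than Loxl3 wherever the overlap reads belonged, so it does not decide the call of Loxl3. Lox and Loxl1 shared 2 words with each other, 0.1% or less of either, Lox shared 2 with AC161119.1 on the opposite strand, and Loxl4 shared 0 with any gene.

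The call of each member was recomputed with other tools, scalings and filters and without each library. Across 16 such fits the adjusted p ran from 2.49e-08 to 0.00566 for Lox, 2.31e-07 to 0.0129 for Loxl1, 2.04e-07 to 0.00941 for Loxl2, 1.45e-08 to 0.00494 for Loxl3 and 0.000156 to 0.0313 for Loxl4. All 5 members were called with edgeR and with limma-voom. For Loxl2 the log2 fold change stayed within 0.98 and 1.32 when single libraries were left out, and for Loxl3 within 0.79 and 0.97. Of the 5, Lox and Loxl4 lost the call in some of these fits, each time on the size of the change.

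**Figure D5:**
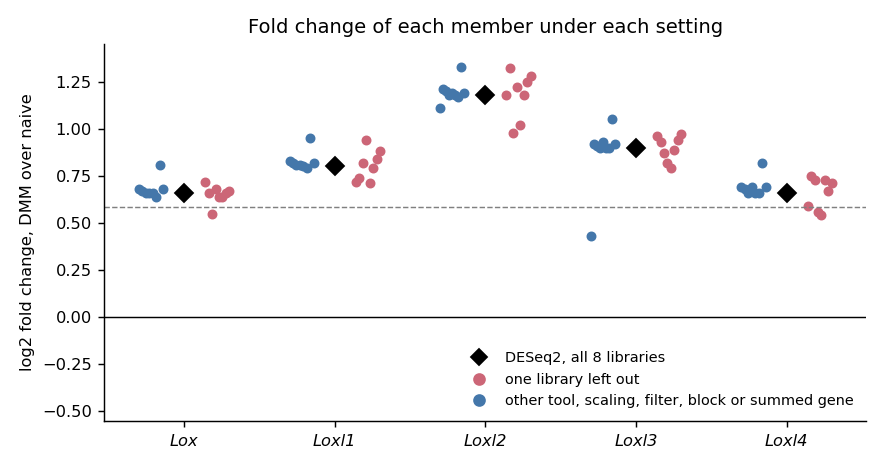
log2 fold change, DMM over naive (y axis), of each lysyl oxidase gene with all 8 libraries in DESeq2 (black), with 1 library left out (red) and with another tool, scaling, filter, the replicate block or a summed gene (blue). The dashed line marks a 1.5-fold change, and the points under it are Lox without DMM 3 (0.55), Loxl4 without naive 1 (0.54) or DMM 4 (0.56), and Loxl3 summed with Htra2 (0.43). The summed point holds all counts of Htra2, which was itself called lower, so it does not decide the call of Loxl3.

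The microRNA studied alongside these libraries, miR-199a-5p, was searched for in the family because its seed can be read against the members' transcripts. Its mature sequence from RefSeq is given 5′ to 3′ with the seed, bases 2 to 8, in capitals.
mmu-miR-199a-5p: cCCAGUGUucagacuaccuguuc
The letters complementary to the seed, ACACTGG on the coding strand, occurred in the 3′ UTR of 0 of the 5 members, whose 3′ UTRs are 1173 to 3160 bases long. Among all 20952 genes with an annotated 3′ UTR, 2773 (13.2%) held at least 1 match. The search covers the longest coding transcript of each gene and these letters alone.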

How the data were processed

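Medial knee cartilage caps from 8 mice (4 naive, 4 DMM) were profiled by RNA-seq, and the deposited table holds estimated counts per gene. Per the methods of the study, the authors trimmed reads with Trimmomatic, quantified them with Kallisto and summed transcripts to genes with tximport. The labels name GRCh38 and an NEB low input kit, the methods GRCm38 and a SMART-Seq kit, and strand use is not given in the sources used here. In each library 39% of values were not whole, and totals were 12479443 to 16548002. One identifier without a symbol held 10.1% to 17.9% of naive and 4.31% to 8.65% of DMM counts.

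Symbols were matched for 48855 of 50462 identifiers. Counts were rounded and tested with DESeq2 1.42.0 in R 4.3.3 (size factors by the median of ratios, Wald test, default filtering), the test named in the methods, with Benjamini-Hochberg adjustment. The fit was tested on simulated data. Alternatives were edgeR 4.0.16 quasi-likelihood, limma-voom (limma 3.58.1), TMM and total-count scaling, other filters, no fold threshold, a replicate block and leaving out each library. Ratios used log2(normalised count + 1) and a two-sided exact permutation test over 70 assignments (scipy 1.17.1). Gene models and 3′ UTRs are from GENCODE vM21 on GRCm38. The members and lists were chosen with earlier results of these data known. Named genes are the members, 10 set genes of related lists, the 3 called genes with the smallest adjusted p in each list and any called against its list's direction, and the 3 nearest profiles of each member. Other genes of the lists (Plod1, Plod3, Tgfb2, Hif1a, Thbs1, Mt2 and the chondrocyte markers), Gm21451 and Htra2 were named after their values were seen. A gene that the rule names is not reported here.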

Additional observations from a re-analysis of the deposited data

Results flagged for a closer look

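Of 86 groups of 4 libraries tested for a value far from the others, 1 stood out, against 4.3 expected by chance, since chance marks about 1 in 20. It was Lrp6, a neighbour of Lox in profile, in naive 4, with 1729 normalised counts against 1523 to 1541 in the other naive libraries. None of the 10 groups of the lysyl oxidase genes stood out.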

How the results depend on the processing

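The family count of 5 called higher held under each other tool, scaling and filter and with the replicate block, and was 4 to 5 when single libraries were left out. Over the named genes' 733 recomputed values 16 lost a call, 14 gained one and 9 changed sign. The sign changes were in Atp7a, which ranged from -0.011 (without DMM replicate 4) to 0.14 when single libraries were left out, and Tgfb1, at 0.013 with edgeR, 0.011 with limma-voom, 0.021 with TMM factors, 0.15 with total counts, 0.028 with total counts without the most abundant identifier, and -0.08 to 0.06 when single libraries were left out. Total counts moved the median of all genes to 0.14. Without a fold threshold 3975 genes were called in all, 1965 of them lower, and total counts gave 486 lower and 2036 higher, so that the split of calls depends on the scaling. Without a fold threshold the lists gave 1 lower elastic fibre gene, 1 lower protease or scaffold gene, 2 higher other cross-linking genes and 8 higher inducers. Copper handling gave 1 higher gene with TMM factors, total counts, and total counts without the most abundant identifier, and 0 to 1 when single libraries were left out (1, Mt2, without DMM 2). Other cross-linking enzymes gave 2 higher with total counts and 1 to 2 when single libraries were left out (2 without naive 4 or DMM 4), and proteases and scaffolds 0 to 1 lower (1, Thbs1, without naive 3, naive 4 or DMM 3). The cause of these moves was not tested. The ratio test also gave 0 pairs with a pseudocount of 0.5 and on unnormalised counts, which says little, since it could pass only with 6 or more pairs at its smallest p. Without 1 library its smallest possible exact permutation p is 0.0571, so that it could not pass. Replicate numbers did not pair the libraries (correlations of same-numbered deviations 0.05, 0.06, -0.12 and 0.12). With the replicate block, log2 fold changes were 0.64 for Lox, 0.79 for Loxl1, 1.17 for Loxl2, 0.90 for Loxl3 and 0.66 for Loxl4, and 2079 genes were called. Among neighbours in profile, Lrp6 and Mdfi, at 1.51-fold each, lost the call in several fits.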
